A study of Mus musculus with 14 samples.

Results

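Tumour c3193, 1 of 12 mouse osteosarcomas, had a higher signal than every other osteosarcoma for each of 10 genes that lie near each other towards the far end of chromosome 3. In order along the chromosome these are Rpf1, Prkacb, Adgrl2, Gipc2, Dnajb4, Usp33, Zzz3, Ak5, Pigk and Acadm, 10 of the 11820 genes tested. They were chosen by their signal in c3193 against the other osteosarcomas and by their shared neighbourhood, so their values in that tumour are given as a description, with no test. Each gene was read from its brightest probe set, the one with the highest mean signal over 14 arrays. The other osteosarcomas were the reference of that choice. The differences among them, the cell line, the tumour labelled rhabdomyosarcoma, the genes in between and the partners of these genes elsewhere make up most of the results.

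The 14 Affymetrix arrays held RNA of 1 tumour labelled rhabdomyosarcoma (m718), 12 osteosarcomas and the mouse osteoblast line mc3T3, which is non-tumorigenic and was cultured without treatment in alpha-MEM with serum. All 13 tumours arose in p53+/- mice, which carry a single working copy of the p53 tumour suppressor gene, so that genotype is shared by every tumour; strain, age and the p53 status of the tumour cells are not stated in the labels. Whether each osteosarcoma is from a different mouse is not stated, so p-values measure the spread between these samples, which may be partly technical. The line and the tumour labelled rhabdomyosarcoma are 1 array each, and the line is a single cultured cell type set beside tumour tissue. In such bulk RNA, fewer cells of a type and less RNA per cell cannot be told apart.

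Osteosarcoma is a bone tumour known for heavily rearranged chromosomes, with many gains and losses of long stretches. Where the dosage of a stretch varies, the RNA of many of its genes can vary with it, while genes under strong local control need not follow. No DNA was measured here, so dosage was not tested. The 10 genes share a neighbourhood and no pathway. Prkacb, Adgrl2 and Gipc2 act in signalling at or near the membrane, Dnajb4 and Usp33 in protein folding and deubiquitination, Zzz3 and Rpf1 in chromatin and ribosome assembly, and Acadm, Ak5 and Pigk in fat, nucleotide and membrane-anchor metabolism.

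Promoter sequence was set out first, because genes that move together may or may not share it. The promoter set used here (RefSeq, GRCm38.p6) held 5 of the 10 genes, Prkacb, Adgrl2, Dnajb4, Zzz3 and Acadm. The 250 bases before the most upstream listed start were read. The 3 shown belong to the gene with the largest difference in c3193 and to 2 brightly measured genes of other pathways: Dnajb4 at chr3:152210084-152210333, Prkacb at chr3:146812947-146813196 and Acadm at chr3:153944644-153944893, all on the minus strand and written 5′ to 3′. Capitals mark matches, on either strand, to the motifs named in the next paragraph.
Dnajb4: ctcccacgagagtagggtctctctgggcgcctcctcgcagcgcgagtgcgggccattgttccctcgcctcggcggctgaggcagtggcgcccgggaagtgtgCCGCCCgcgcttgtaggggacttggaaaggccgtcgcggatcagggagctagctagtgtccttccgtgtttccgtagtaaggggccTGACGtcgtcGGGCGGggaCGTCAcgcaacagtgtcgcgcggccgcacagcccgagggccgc
Prkacb: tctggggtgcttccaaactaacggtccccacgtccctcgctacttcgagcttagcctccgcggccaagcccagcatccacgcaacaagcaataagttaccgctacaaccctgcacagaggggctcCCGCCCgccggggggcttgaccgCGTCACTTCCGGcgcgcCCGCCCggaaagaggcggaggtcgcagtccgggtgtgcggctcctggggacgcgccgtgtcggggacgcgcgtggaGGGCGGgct
Acadm: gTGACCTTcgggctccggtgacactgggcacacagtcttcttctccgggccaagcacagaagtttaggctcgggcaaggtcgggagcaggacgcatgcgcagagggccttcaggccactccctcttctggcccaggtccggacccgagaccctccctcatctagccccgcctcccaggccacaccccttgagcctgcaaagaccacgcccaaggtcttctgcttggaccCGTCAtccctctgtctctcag

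The Dnajb4 and Prkacb promoters were rich in CG pairs, with 31 and 30 in 250 bases and a G and C content of 69.2% each, against a median of 6 pairs and 52% over the 27025 promoters of the table. Acadm had 12 pairs and 64%. Adgrl2 and Zzz3 had 3 and 6 pairs and 37.6% and 45.6%. The GC box GGGCGG matched in 3 of the 5 promoters (Prkacb, Dnajb4 and Zzz3), against 33.0% of all promoters. The shortened motif TGACG, which lies within the cAMP response element, matched in 4 of 5 (all but Zzz3), against 17.8% of all. The complete element TGACGTCA matched in 0 of 5 (1.6% of all), as did the heat shock element GAANNTTC (6.79%), the E-box CACGTG (6.04%) and CCAAT (34.5%). The TATA box TATAAA matched in Adgrl2 alone (13.0% of all), the ETS site CCGGAAG in Prkacb alone (7.07%) and the nuclear receptor motif AAGGTCA in Acadm alone (4.04%). TGACG was counted also inside TGACGTCA. No motif of those searched was found in all 5 promoters; a match is a description of the letters and not of a bound site.

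The signalling genes were high in c3193 by different margins. Prkacb, a catalytic subunit of the cAMP-dependent kinase PKA, had a signal of 5815 in c3193 and 4102 in m718, against 1694 to 2762 (median 2118) in the 11 other osteosarcomas and 3440 in mc3T3. The c3193 array was the highest of all 14 for Prkacb, at 2.11 times the next osteosarcoma (o19) and 2.75 times their median. Adgrl2, the adhesion receptor latrophilin 2, had 2402 in c3193 and 2753 in m718, against 416 to 1234 (median 757) in the other osteosarcomas and 5758 in mc3T3. Among the osteosarcomas c3193 did not overlap with the rest for Adgrl2, yet both m718 and the cell line were higher still. Gipc2, a PDZ-domain adaptor for membrane receptors, had 853 in c3193 and 82.2 in m718, against 138 to 460.5 (median 226) in the other osteosarcomas and 6.11 in mc3T3. Its signal reached 200 on 7 of 14 arrays, so that low values of Gipc2 could not be told from background.

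Dnajb4, a heat shock protein 40 cochaperone that passes unfolded proteins to HSP70, showed the largest difference of the 10 in c3193. Its signal was 6676 in c3193 and 2098 in m718, against 1120 to 2800 (median 1752) in the 11 other osteosarcomas and 1681 in mc3T3. That is 3.81 times the median osteosarcoma and 2.38 times the next highest, m525. Usp33, a deubiquitinating enzyme, had 1769 in c3193 and 584 in m718, against 574 to 1316 (median 843) in the other osteosarcomas and 1544 in mc3T3. Here c3193 lay 1.34 times above the next tumour, m849, and the cell line lay above all of the other osteosarcomas too.

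Zzz3, a histone reader of the ATAC acetyltransferase complex, had 5746 in c3193 and 4161 in m718, against 1214 to 3044 (median 1914) in the other osteosarcomas and 2837 in mc3T3. Rpf1, a Brix-domain protein known from yeast to assemble the large ribosomal subunit, had 3047 in c3193 and 2182 in m718, against 816 to 1718 (median 1165) in the other osteosarcomas and 649 in mc3T3. For both nuclear genes m718 came next after c3193, above all 11 other osteosarcomas.

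Acadm, the medium-chain acyl-CoA dehydrogenase of mitochondrial fat burning, had 8008 in c3193 and 3034 in m718, against 2204 to 3846 (median 2641) in the other osteosarcomas and 4611 in mc3T3. Ak5, an adenylate kinase best known from brain, had 769 in c3193 and 430.1 in m718, against 57.6 to 500.1 (median 271) in the other osteosarcomas and 1464 in mc3T3. Ak5 had the widest spread relative to its mean among the other osteosarcomas, with m710 lowest and o7-1 highest. Pigk, the protease subunit that joins proteins to their GPI anchor, had 2432 in c3193 and 1869 in m718, against 1067 to 2081 (median 1389) in the other osteosarcomas and 1717 in mc3T3. It showed the smallest gap of the 10, with c3193 only 1.17 times above m849.

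**Figure D1:**
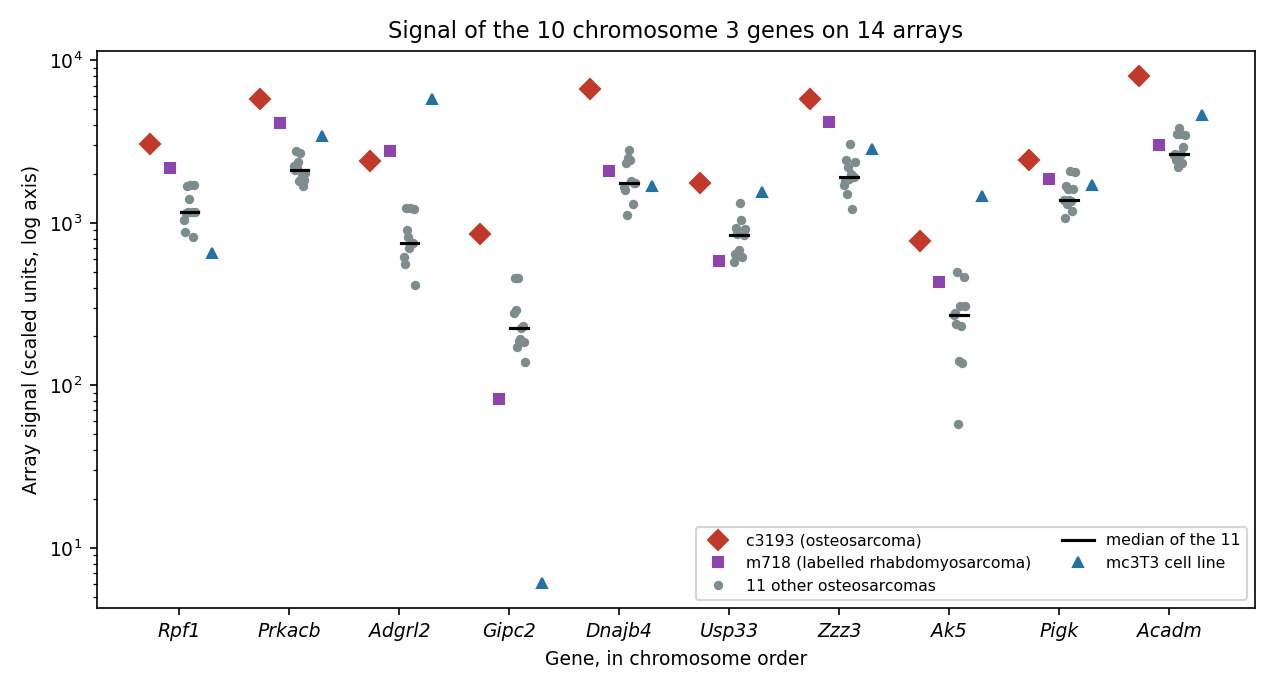
Signal of each of the 10 genes (x axis, chromosome order) on 14 arrays (y axis, scaled array units, log axis), for c3193, the tumour labelled rhabdomyosarcoma m718, the 11 other osteosarcomas with their median as a bar, and mc3T3. The c3193 diamond lies above all 11 other osteosarcomas for every gene, while mc3T3 is higher than c3193 for Adgrl2 and Ak5 and m718 is higher for Adgrl2; levels of different genes come from different probe sets and are not comparable.

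On the log2(signal + 30) scale, c3193 minus the median of the other 11 osteosarcomas was 1.91 for Dnajb4, 1.79 for Gipc2, 1.63 for Adgrl2, 1.59 for Acadm, 1.57 for Zzz3, 1.44 for Prkacb, 1.41 for Ak5, 1.36 for Rpf1, 1.04 for Usp33 and 0.79 for Pigk. The median of these 10 differences was 1.51. Thus 9 of 10 genes were at least 1 higher, and of all genes tested 4.47% were; all 10 lay above every other osteosarcoma, and of all genes 13.3% did. Both shares stand beside the counts as background to a contrast that chose the genes. Tumour c3193 also had 9.64% of all genes at least 1 lower, and its median over all genes was -0.03, which is the level the 10 genes stand beside.

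The probe sets that were not the brightest of their gene were also read. The platform has 22 probe sets for them, of which 18 reached a signal of 200 on at least 1 array. Of these, 10 are the brightest sets that the choice used and 8 are others. In 7 of the 8 others c3193 was the highest osteosarcoma. The second probe sets of Dnajb4 (2753 in c3193, against 409 to 994 in the other osteosarcomas), Zzz3 (2165, against 509 to 1597) and Adgrl2 (2450.1, against 409.5 to 1343) did not overlap either. The exception was another, dim probe set of Dnajb4, with 185 in c3193 against 43.1 to 209. Probe sets of a gene share its RNA and are not separate evidence.

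To describe the other tumours, each array was set against the median of the osteosarcomas other than c3193 and itself. In m849, 9 of 10 genes were above that median (Gipc2 at -0.21 was the exception), with a median difference of 0.51 and a highest of 0.77 for Usp33; of all genes tested 52.2% were above it and 47.8% below it in m849. In m825, 9 of 10 were below (Gipc2 at 0.13 was again the exception), with a median of -0.39 and a lowest of -0.86 for Ak5, where 45.3% of all genes were below and 54.7% above. The next highest median was 0.33 in o19, and the other 8 osteosarcomas lay between -0.14 and 0.15. The SD of these medians over the 11 tumours was 0.25. The median was 0.52 in m718 and 0.63 in mc3T3, where it hides wide differences in both directions, from -2.83 for Gipc2 to 2.88 for Adgrl2 in the line.

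**Figure D2:**
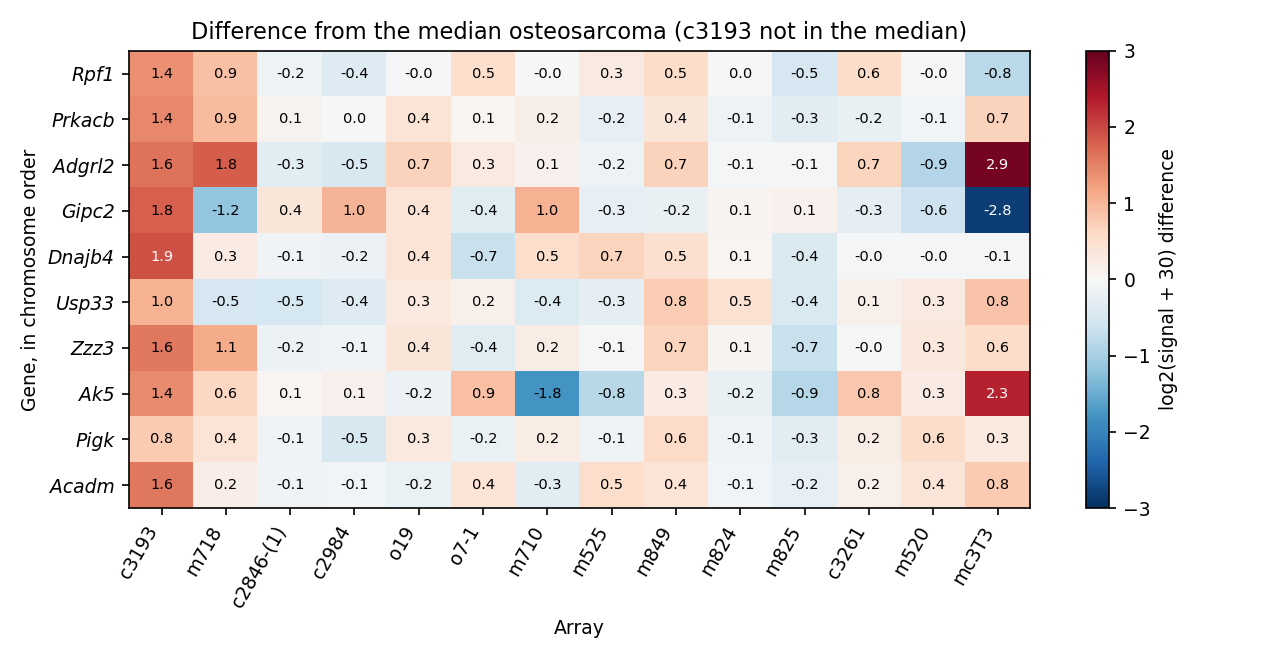
Difference of each gene (rows, chromosome order) on each array (columns, c3193 first, then m718, the 11 other osteosarcomas and mc3T3) from the median osteosarcoma on the log2(signal + 30) scale, red for higher and blue for lower. The c3193 column is red throughout (0.79 to 1.91), m849 is mostly pale red and m825 mostly pale blue, and mc3T3 mixes 2.88 for Adgrl2 with -2.83 for Gipc2.

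Among these 11 tumours, the 45 pairs of genes had a median Pearson's r of 0.26 (range -0.74 to 0.82), and 35 pairs were above 0. These coefficients are a description over 11 arrays, which the genes share. Gipc2 and Ak5 varied most of the 10 relative to their means: m710 was lowest for Ak5 (a difference of -1.80) and highest for Gipc2 (1.04).

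The genes between the 10 were then read to see how continuous the high stretch was. The gene table holds 26 protein-coding genes from Rpf1 to Acadm, of which 18 were tested, the 10 listed genes and 8 others. Of the 8 others, 3 were at least 1 higher in c3193, against 4.47% of all genes. Only 1 of the 8 exceeded every other osteosarcoma, which is near the share of all genes that did, 13.3%. That gene was Rabggtb, a subunit of the Rab prenyltransferase, with 4563 in c3193 against 1228 to 3054 (difference 1.17). Ptgfr, the prostaglandin F receptor (1.27), and Miga1, a mitochondrial fusion protein (1.08), were higher than the median but lay within the range of the other tumours. Nexn, an actin-binding protein of muscle (0.70), Ifi44l, an interferon-induced gene (0.84), and Fubp1, a nucleic acid binding regulator (0.09), were under 1.

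A further pair of genes inside the stretch was lower in c3193. Ttll7, a tubulin-modifying enzyme, had 44.4 in c3193, against 55.7 to 582 (median 193) in the other osteosarcomas, a difference of -1.58. Adgrl4, a receptor of endothelial cells and a relative of Adgrl2, had 409 in c3193 against 393 to 933 (median 645), a difference of -0.62. The summed signal of 6 endothelial markers was 5829 in c3193, against 3624 to 11697 (median 5861) in the other osteosarcomas; its part in the Adgrl4 value was not tested. The 8 genes not chosen had a median difference of 0.77 in c3193, with 3 of 8 at least 1 higher, against 4.47% of all genes; their median was 0.51 in m849, 0.48 in o19 and 0.54 in mc3T3. Over all 18 tested genes, 12 were at least 1 higher and 1 at least 1 lower in c3193, with a median of 1.22, but 9 of those 12 are genes chosen for it. With the 3 genes of mean signal under 200 left out (Ttll7, Ifi44l and Miga1), 11 of 15 were at least 1 higher.

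The genes beside the listed ones were read next; 13.3% of all genes were highest in c3193. Of the 10 tested genes just before Rpf1, 6 were highest in c3193 among the 12 osteosarcomas, and the median difference of the 10 was 0.91. Of these 6, Spata1 passed the signal filter through c3193 alone, so its being highest there was fixed by the filter. It had 307 in c3193, at most 196 in the other osteosarcomas, 74.0 in m718 and 118 in mc3T3. Bcl10, an adaptor of NF-kappaB signalling, had 3102 in c3193 against 1390 to 1890 in the others, and 2410004B18Rik, a gene with no role given here, had 3972 against 1630 to 2563. Their differences were 0.89 and 0.97. Ddah1, which degrades methylated arginines, went the other way, with 176 against 159 to 706 (-1.14). Ccn1, a matrix protein, was 1.51 above the median of the other osteosarcomas, but m520 was higher still (5762 in c3193, against 993 to 7274).

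Of the 10 tested genes after Acadm, 5 were highest in c3193, and the median difference of the 10 was 0.79. Of these 5, Lrriq3 passed the signal filter through c3193 alone, so its rank too was fixed by the filter. It had 270 in c3193, at most 138 in the other osteosarcomas, 76.4 in m718 and 56.2 in mc3T3. Cryz, a quinone reductase, had 3372 in c3193 against 846 to 2499 in the other osteosarcomas (1.38). Zranb2, a splicing protein, had 4576 against 863 to 3578 (0.94). Tyw3, a tRNA-modifying enzyme, had 363 against 81.1 to 203 (1.35). Cth, Negr1, Ptger3 and Lhx8 were at or under 33.2 in c3193, near background, and had differences from -0.95 to -0.27.

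**Figure D3:**
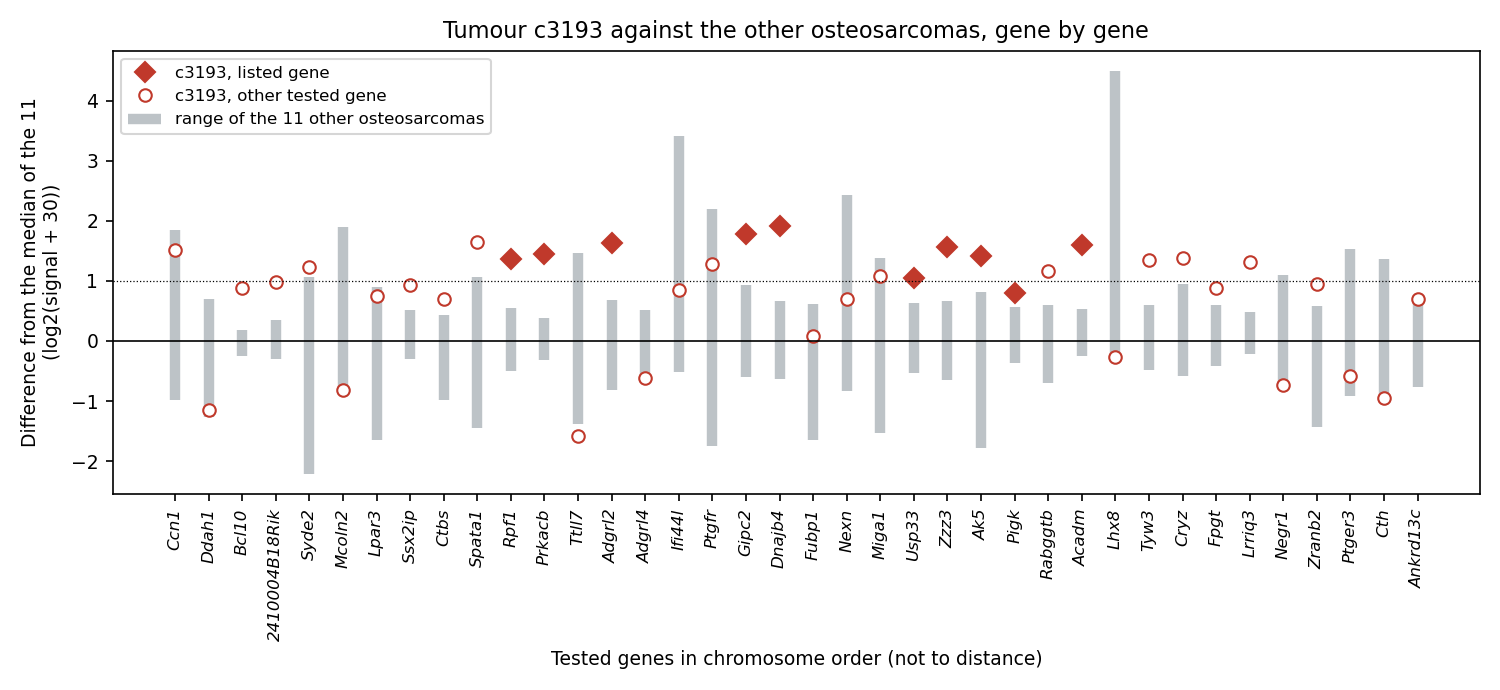
Difference of c3193 from the median of the 11 other osteosarcomas (y axis, log2(signal + 30) scale) for 38 tested genes in chromosome order (x axis, not to distance), with filled diamonds for the 10 listed genes and open circles for the others; grey bars give the range of the 11 other osteosarcomas. Diamonds lie above the grey bars throughout, as do Rabggtb, Cryz, Tyw3 and Bcl10, while Ttll7 lies under its bar.

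To place the stretch on the chromosome, the median of 11 neighbouring genes was taken along the 512 chromosome 3 genes with a mean signal of at least 200. In c3193 this running median peaked at 1.41 in the window centred on Dnajb4. It was at or above 1 in 16 of 502 windows, the first centred on Rpf1 and the last on Cryz, and it stayed at or above 0.5 from the window centred on Gbp3 to the last window of the chromosome, 38 windows in all. Neighbouring windows share genes. Among the 11 other osteosarcomas and mc3T3 no window reached 1. The highest of m849 was 0.95, centred on Camk2d. The highest of mc3T3 was 0.85, centred on Rabggtb, which lies inside the same stretch, between Pigk and Acadm. Tumour m718 reached 1 in 9 windows, with its peak of 1.41 centred on Gbp3 and away from the listed genes.

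Tumours m849 and m825 were then read along the whole chromosome. In m849 the running median was above 0 in 490 of 502 windows, and the median over all 608 tested genes of chromosome 3 was 0.31. In m825 the 304 genes of the first part of the chromosome had a median of 0.04 and the 304 genes of the second part, where the 10 genes lie, had -0.32. In c3193 these parts had medians of 0.16 and 0.35. Chromosome 3 was not the highest of m849, in which 2 of the other 19 chromosomes had a higher median, up to 0.33. In m825 the chromosome 3 median, -0.15, was the lowest of the 20. Over the whole chromosome c3193 had a median of 0.25, and its medians on the other 19 chromosomes ran from -0.37 to 0.26, with 2 of them above that of chromosome 3. These are descriptions of single arrays.

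**Figure D4:**
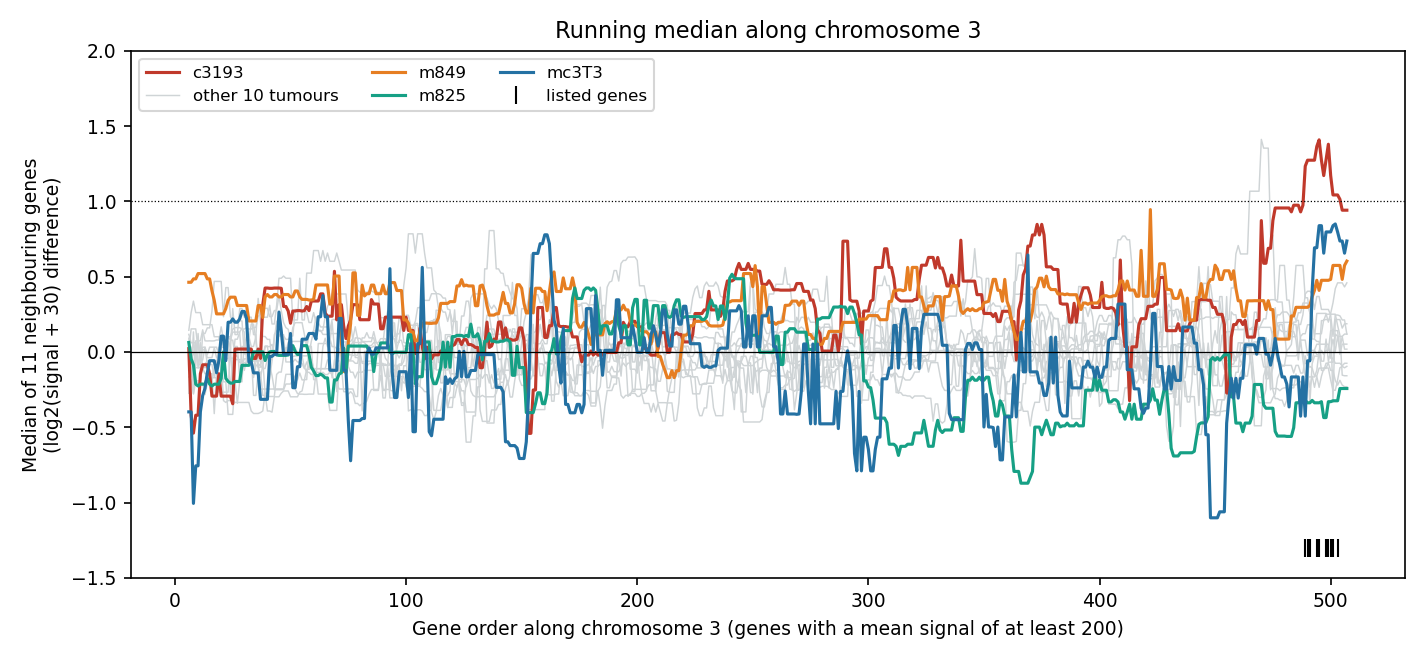
Running median of 11 neighbouring genes along chromosome 3 (x axis, gene order; y axis, log2(signal + 30) difference from the median osteosarcoma) for c3193, the other tumours in grey, m849, m825 and mc3T3, with ticks for the listed genes. The c3193 line rises to 1.41 over the listed genes at the far end, m849 runs above 0 along nearly the whole length, m825 runs below 0 along the second part, and the grey spike to 1.41 is m718.

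The c3193 array had the lowest correlation with the mean of the other osteosarcomas by a narrow margin, at 0.956 against 0.959 to 0.974 for the 11 others. Its 6 measured osteoblast markers summed to 112276, against 89037 to 139683 in the other osteosarcomas, and Ibsp, encoding bone sialoprotein, had 36608 against 30245 to 49103. Bglap and Runx2 had no named probe set reaching 200, so that the label rests on the other 6. The macrophage markers were the second lowest of the 12 (53262 in c3193, against 51388 to 120761), all 7 of 7 being measured. Of these, 4 lay below every other osteosarcoma: the complement genes C1qa (2539 in c3193, against 3713 to 19881), C1qb (3173, against 4326 to 18304) and C1qc (1852, against 2064 to 17969) and the protease gene Ctss (4129, against 7063 to 20334). Their differences were -1.51, -1.63, -1.60 and -1.78, while Csf1r, the receptor of macrophage growth factor, was at -0.09 and made up 25146 of the sum. In the tumour labelled rhabdomyosarcoma, a tumour of muscle lineage, Ckm, the muscle creatine kinase, had 24.9 and the 6 muscle markers summed to 1071, so these markers do not bear out its label. Genes of muscle precursors were not among them, so the label itself was not tested. In mc3T3 Ibsp was at 37.5, Dmp1 at 62.9 and Ifitm5 at 79.1, while Col1a1 was at 62368, Alpl at 1553 and Sp7 at 1517. The 6 osteoblast markers summed to 65618 in the line. In c3193 the muscle markers summed to 1433, against 412 to 212059, with Ckm at 153. The sum of the 2 measured adipocyte markers was lowest in c3193 by a narrow margin (4292, against 4295 to 16583). Neither marker was lowest there by itself: Adipoq had 158 against 66.9 to 1573, and Fabp4 had 4134 against 4012 to 15762. Osteoclast, cartilage, T cell, neuronal and erythroid sums lay inside the range of the others. Of 43 marker genes measured, 4 were at least 1 higher in c3193, as were 4.47% of all genes. More were at least 1 lower, among them all 6 muscle markers (-3.19 for Acta1 to -1.53 for Ckm), where 9.64% of all genes were. The beta-actin 3' to 5' ratio, a measure of RNA integrity, was 1.44 in c3193, 1.24 in m718, 1.42 to 2.13 in the other osteosarcomas and 1.32 in mc3T3. The part of macrophage or adipocyte content in the c3193 values was not tested.

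Partners and relatives of the 10 genes, mostly on other chromosomes, were read for the same difference in c3193. Of 106 such genes measured, 4 were at least 1 higher in c3193, 6 at least 1 lower and 9 were highest among the osteosarcomas, with a median of -0.10 against -0.03 for all genes tested. Of all genes, 4.47% were at least 1 higher, 9.64% at least 1 lower and 13.3% highest in c3193. In the chaperone list, the stress-induced HSP70 genes Hspa1a (1241 in c3193, against 98.9 to 912; 1.92) and Hspa1b (2408, against 266 to 1628; 2.27) were higher. They are near-identical copies whose probe sets may share RNA. Dnajb2, a cochaperone best known from neurons, was lower (61.1 in c3193, against 177 to 608; -2.38), and the cochaperone Bag3 was at -0.84.

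In the PKA list, the regulatory subunit Prkar1b was at 1.01, Pde4d and Pde4b, which break down cAMP, were at 1.18 and -0.76, and the anchor Akap13 was at -0.47. Fatty acid oxidation genes other than Acadm had a median of -0.17, with 0 of 16 at least 1 higher; Decr1 was at -0.80, Etfb at -0.61 and Slc25a20 at -0.59. Of 12 other genes of GPI anchor synthesis and transfer, 0 were at least 1 higher and 2 were at least 1 lower: Pigo (-1.29) and Gpaa1 (-1.25), a partner of Pigk in the same enzyme. Dpm1, a mannose donor enzyme, was at -0.70. Partners of Zzz3 in the ATAC complex had a median of 0.12, with 0 of 12 at least 1 higher. Kat2b, an acetyltransferase, was at 0.70, Wdr5 at 0.59, Tada3 at 0.49 and Sgf29 at -0.39. In the ribosome assembly list Bop1 was at -1.01, Nop58 at 0.46, Ppan at -0.45 and Fbl at -0.40. Among nucleotide kinases Ak4 was at -0.75, Cmpk1 at -0.59 and Nme1 at -0.55. In the Usp33 list Arrb2, a beta-arrestin, was at -1.29, Usp20, a paralogue of Usp33, at 0.73, and Robo1 and Ccp110 were at 0.37 and 0.34. The latrophilin ligand Tenm4 was at -1.04, and Myo6, Rgs19 and Gipc1 of the GIPC list were at 0.28, 0.10 and 0.01.

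By Pearson's r over all 14 arrays, the 8 other genes whose pattern was most like the mean of the 10 were Psmd7 (0.92), Pkn2 (0.91), Cdh1 (0.90), Fam8a1 (0.88), Ankrd50 (0.88), Odf2l (0.88), Tyw3 (0.87) and Ncoa2 (0.87). Of these, Pkn2, Ankrd50, Odf2l and Tyw3 lie on chromosome 3. The 10 genes were chosen as high in c3193, so a high value there is part of this likeness. Over the 11 osteosarcomas without c3193 the 8 most like were others, led by Sh3rf1 (0.91), Tbx4 (0.87) and Gsdme (0.86), with 2 of 8 on chromosome 3 (Larp7 and Abcd3). The coefficients come from few arrays and are given with no test.

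The group comparisons were fitted without c3193, since that array chose the genes. The tumour labelled rhabdomyosarcoma was set against the 11 other osteosarcomas with limma, on all 11820 genes. None of the 10 genes was called at an adjusted p under 0.05 and a difference of 1 or more, where limma called 1.26% of all genes higher and 1.7% lower, 2.96% in all. At an unadjusted p under 0.05 the count was 4 of 10. The share of all genes under that looser threshold was not counted, here or below, so such counts have no background beside them. The closest was Adgrl2 at 1.75 ± 0.48 (SE; limma adjusted p = 0.0715, 0.0531 to 0.203 over the alternatives). Zzz3 differed by 1.08 ± 0.38 (limma adjusted p = 0.168), Prkacb by 0.94 ± 0.29 (0.114) and Gipc2 by -1.27 ± 0.50 (0.212). The median of the 10 differences was 0.55, against 0.05 for all genes.

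The osteosarcomas without c3193 were then compared with the mc3T3 line, the control of the series. Of the 10 genes, 1 rose in osteosarcoma, 2 fell and 7 did not pass, where limma called 9.31% of all genes higher and 5.12% lower, 14.4% in all. Gipc2 rose by 2.90 ± 0.50 on the log2 scale (SE, limma adjusted p = 0.00144), with 6.11 in the line and 138 to 460.5 in the 11 osteosarcomas. The value of the line is not above background, and osteosarcoma values under 200 cannot be told from background either. The size of the Gipc2 rise therefore depends on the pseudocount: it was 3.95 with 10 and 1.69 with 100 added to the signal, and was called with both. Gipc2 also reached 200 in osteosarcomas alone, so it passed the filter only through the group where it was high. Adgrl2 fell by 2.81 ± 0.48 (adjusted p = 0.00152 by limma), with each of the 11 tumours at or under 1234 and the line at 5758. Ak5 fell by 2.49 ± 0.70 (adjusted p = 0.0294 by limma), its tumours reaching at most 500.1 against 1464 in the line. With c3193 included as a twelfth tumour, Ak5 did not pass (-2.35, limma adjusted p = 0.0639, and 0.0117 to 0.0639 over all alternatives).

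The 7 others did not pass. Usp33 differed by -0.93 ± 0.39 (limma adjusted p = 0.132), Rpf1 by 0.89 ± 0.39, Prkacb by -0.69 ± 0.29, Acadm by -0.68 ± 0.33, Zzz3 by -0.53 ± 0.38, Pigk by -0.20 ± 0.34 and Dnajb4 by 0.14 ± 0.42. The median of the 10 differences was -0.60, against -0.02 for all genes. With 1 array for the line and 1 for m718, each test sets that array against the spread of the 11 tumours and assumes that a lone array varies as they do.

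**Figure D5:**
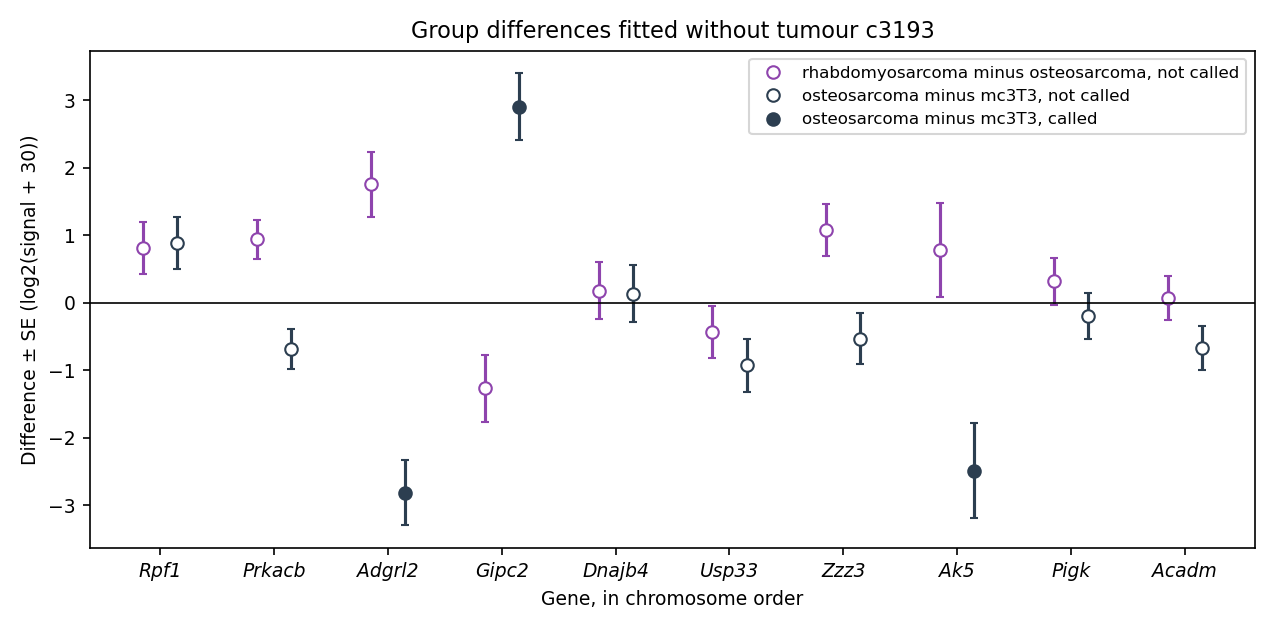
Fitted difference ± SE on the log2(signal + 30) scale (y axis) for each gene (x axis), for m718 minus the 11 other osteosarcomas and for the 11 osteosarcomas minus mc3T3, with filled points for calls. Filled points are Gipc2 (2.90), Adgrl2 (-2.81) and Ak5 (-2.49) against mc3T3, and no point of the m718 comparison is filled.

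Among the 106 partner genes, 3 rose and 1 fell in m718 against the osteosarcomas, and 6 rose and 2 fell in the osteosarcomas against mc3T3. Of all genes 2.96% were called in m718 and 14.4% against mc3T3. In the latrophilin list, the relative Adgrl3 (2.71 ± 0.54) and the teneurin ligand Tenm3 (4.63 ± 0.68) rose in m718 among 8 genes measured, and Adgrl4 rose in osteosarcoma against the line (2.08 ± 0.38). In the PKA list of 14, the regulatory subunit Prkar1b rose in osteosarcoma against the line (3.96 ± 0.94) and the anchor Akap13 rose in m718 (1.46 ± 0.34). The ATAC subunit Sgf29 rose (2.06 ± 0.40) and Tada3 fell (-1.35 ± 0.37) against the line, of 12 measured. Ak1, the adenylate kinase of muscle, fell (-1.63 ± 0.50), of 7 in its list. Arrb2 rose (1.85 ± 0.57), of 7 measured in the Usp33 list, and Pigb, a GPI mannosyltransferase, rose (1.68 ± 0.36), of 12. Of 16 fatty acid oxidation genes, Acaa2, the mitochondrial thiolase, rose against the line (1.67 ± 0.33) and fell in m718 (-1.45 ± 0.33). Several of these comparisons rest on a group under 200, where the size depends on the pseudocount: Adgrl3 was at most 72.1 and Tenm3 at most 97.2 in the 11 osteosarcomas, and Prkar1b (49.1), Pigb (34.0), Adgrl4 (121) and Sgf29 (173) were low in the line. Adgrl3 and Tenm3 reached 200 in m718 alone, and Pigb in osteosarcomas alone. Each of them passed the filter only through the group where it was high. The chaperone (14), Brix domain and ribosome assembly (13) and GIPC (3) lists had 0 genes called by limma in either comparison. At an unadjusted p under 0.05 these lists had 1, 0 and 0 genes in m718 against the osteosarcomas, and 4, 1 and 1 in the osteosarcomas against the line, in the same order.

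Of the 8 tested genes between the listed ones, Adgrl4 alone was called against the line, and 0 were called by limma in m718 (0 at an unadjusted p under 0.05). Among the 20 flanking genes, Lpar3, a lysophosphatidic acid receptor, rose in osteosarcoma against the line (2.76 ± 0.66) and fell in m718 (-2.74 ± 0.66), and Cth (4.75 ± 0.72) and the neuronal adhesion gene Negr1 (3.37 ± 0.53) rose in m718. Lpar3 was at 6.92 in m718 and 6.31 in the line, and Cth and Negr1 were under 200 in all 11 osteosarcomas, so these sizes too depend on the pseudocount. Negr1 reached 200 in m718 alone and Lpar3 in osteosarcomas alone, so each passed the filter only through the group where it was high.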

How the data were processed

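RNA of 13 tumours and 1 cell line had been hybridised to 14 arrays after Qiagen RNeasy extraction and biotin labelling, per the labels' protocols. The deposited values are the authors' array signal (intensity) for 45101 probe sets on a linear scale; per the submitters' processing notes they used GCOS, with software version, background step and probe summary not given in the sources used here. Each array without its top and bottom 2% averaged 499 to 500.0, so arrays had been scaled before deposit. The number of arrays limits the precision.

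Groups came from the titles; the labels give no replicate numbers. Arrays were set to the same trimmed mean (500), and analysis used log2(signal + 30), which understates changes of low genes. Genes were named through the platform annotation, updated through Entrez identifiers with a GRCm38.p6 gene table (34945 probe sets with 1 symbol, 932 with several), which also gave the gene order. Genes with a signal of 200 or more on at least 1 array were tested, each by its brightest probe set, 11820 in all; all 10 listed genes passed this filter, also without c3193. Tests used limma 3.58.1 in R 4.3.3 (two-sided, Benjamini-Hochberg over 11820 genes) with 3 group means, without c3193, and were tested on simulated data; the residual spread came from 11 osteosarcomas (10 residual and 3.58 prior degrees of freedom). Descriptions used Python 3.11.15.

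The genes, lists and rules were chosen with earlier results of these data known. Named were the 10 genes, the tested genes between and beside them (10 per side), up to 4 genes per partner list by call and then by difference in c3193, and the 8 genes most alike by Pearson's r. Of 112 listed partners, 106 were measured. Alternatives were other pseudocounts, no filter, a higher signal minimum, quantile normalization, the mean of probe sets, all 12 osteosarcomas and each osteosarcoma left out.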

Additional observations from a re-analysis of the deposited data

How the results depend on the processing

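No paired analysis was possible, since mc3T3 and m718 are 1 array each and the labels pair no samples. The calls of Gipc2 and Adgrl2 against mc3T3 held under all 17 alternatives, and 0 of the 10 genes was called by limma in m718 under any of them. The count of 4 at an unadjusted p under 0.05 in m718 is that of the main fit. It was not made for the alternatives. Leaving out each osteosarcoma in turn kept the count against mc3T3 at 3; with all 12 osteosarcomas it was 2, Ak5 being lost (-2.35, adjusted p = 0.0639). The direction changed for a pair of small differences that had not passed: Dnajb4 against mc3T3 was -0.18 with the mean of its probe sets, and Acadm in m718 was -0.046 with all 12 osteosarcomas. The genes called overall ranged from 1526 to 1741 against mc3T3 and from 294 to 410 in m718. The count of partner genes called against mc3T3 also varied between settings, and single partner calls were not followed across them. The median difference of the 10 genes in c3193 was 1.40 to 1.54 over its alternatives (1.47 to 1.54 leaving out 1 other osteosarcoma). The count at least 1 higher in c3193 was 8 or 9 of 10, Usp33 lying near that line, and 10 to 12 of the genes from Rpf1 to Acadm; the restriction to genes of mean signal 200 or more was chosen after seeing the data. Without detection calls, signals under about 200 could not be told from background, which limits Gipc2 and the dim neighbours most.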
